A study of Homo sapiens with 4 samples.

Results

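The collagens and laminins were taken as every protein-coding gene of the deposited table whose symbol was COL, a number, A and a number, or LAMA, LAMB or LAMC and a number. This gave 55 of the 48162 genes listed, of which 43 were collagens and 12 were laminins. COL26A1 has a matching name but was listed as a polymorphic pseudogene and was not counted. The libraries came from MDA-MB-231, an established human breast cancer cell line of mesenchymal character, grown in culture and treated for 24 h. MGH-CP1 is a small molecule that blocks palmitoylation of the TEAD transcription factors, the DNA-binding partners of the co-activators YAP and TAZ. Poly-A mRNA was sequenced from 2 libraries of vehicle control cells, whose columns carry the name of the solvent DMSO, and 2 libraries of cells given MGH-CP1 at 10 µM by the sample labels, where the methods text has mM. Nothing states that the libraries of a group came from separate cultures, so the p-values measure only the spread between these libraries, which may be technical.

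Collagens are extracellular proteins whose chains wind into a triple helix, and they are sorted by what they assemble into: banded fibrils, the type IV network of basement membranes, beaded microfibrils of type VI, linkers on the surface of fibrils, short-chain networks, or proteins that span the plasma membrane. Laminins are cross-shaped trimers of one alpha, one beta and one gamma chain that start basement membrane assembly and bind integrins at the base of epithelial cells. In carcinoma both families are made by tumour cells and by stroma. Here the levels are those of a cultured line with no stroma added.

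Values are FPKM, fragment counts scaled to gene length and to library size, and levels of different genes were compared only on this per-length scale. The 4 libraries held 17577930 to 25508824 fragments, with fewer in both MGH-CP1 libraries. VIM (259 to 281 FPKM) and CD44 (198 to 221 FPKM) were high and ESR1 and PGR were at most 0.0243 FPKM, as in the mesenchymal, hormone-receptor-negative line the labels name, whereas ERBB2 (24.7 to 28.4 FPKM) and EPCAM (12.4 to 16.4 FPKM) were present. The 6 fibroblast markers summed to 1.45 to 1.97 FPKM, mostly PDGFRB, with DCN, PDGFRA and THY1 at or near 0. The 3 endothelial markers analysed summed to 0.940 to 1.55 FPKM, with CDH5 at 0 in every library. The 4 leukocyte markers summed to 0.223 and 0.256 FPKM in the vehicle control and 1.22 and 1.11 FPKM after MGH-CP1, almost all of it LYZ, with CD3E at 0. The part of these markers in the results was not tested. In bulk RNA, fewer cells making a transcript and less of it per cell cannot be told apart.

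Most of the collagens and laminins that this line expresses were higher after MGH-CP1, while 3 were lower and 5 did not pass the test. Among the members with a mean of at least 1 FPKM, COL7A1 and COL6A1 showed the largest rises, to 2.85 and 2.02 times the vehicle mean, and COL12A1 the largest fall, to 0.454 times. Of the 55 members, 24 reached that level over the 4 libraries, each of them in both groups, and were tested with limma on log2(FPKM + 1), a scale that understates the change of low genes, with p-values adjusted by the Benjamini-Hochberg method over all 12080 genes tested. After MGH-CP1, 16 of the 24 were higher at an adjusted p under 0.05 (66.7%), beside 27.1% of all genes tested. Another 3 were lower (12.5%), beside 23.8% of all genes, and 5 did not pass the test. Both MGH-CP1 libraries lay above both vehicle libraries for 17 members and below them for 3, beside 39.8% and 37.4% of all genes. The median log2 difference of the 24 was 0.37, with an SD of 0.06 over the 4 pairs of one library of each group, against 0.01 over all genes tested. These pairs share libraries, so this SD is not an error from independent replicates.

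**Figure D1:**
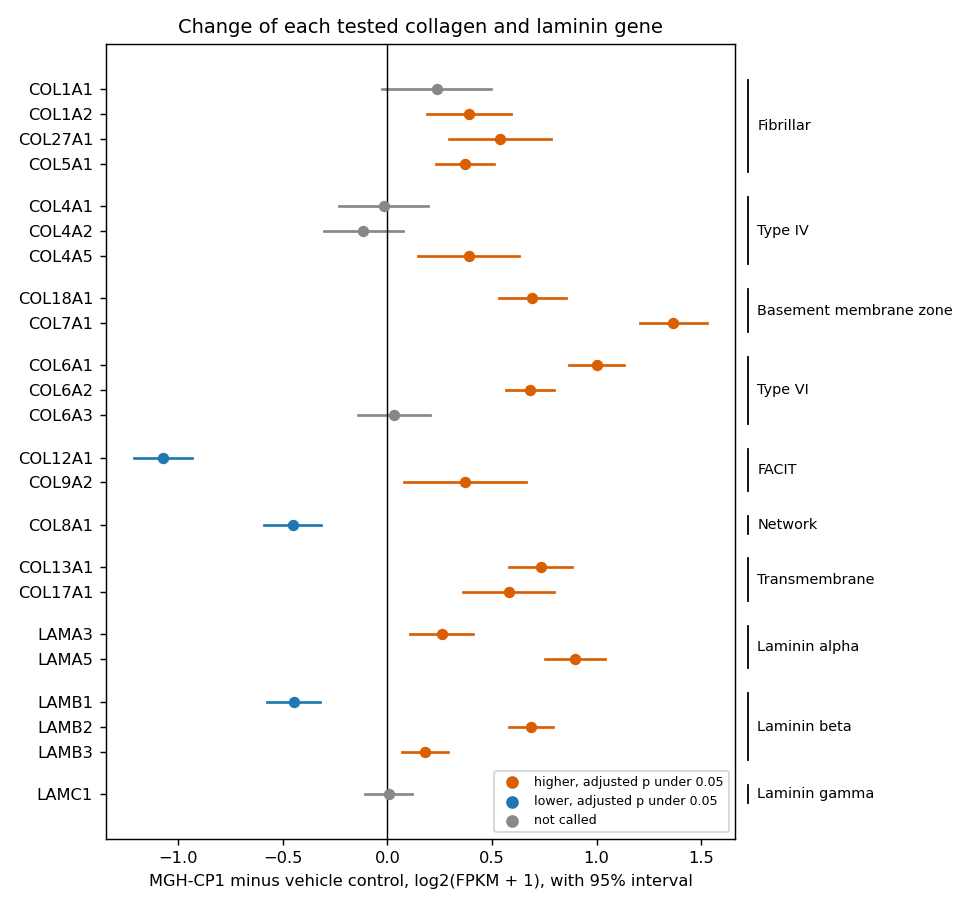
Each point is the log2 difference (MGH-CP1 minus vehicle control, on log2(FPKM + 1), n = 2 libraries a group) of each of 23 tested collagen and laminin genes with its 95% confidence interval from limma, grouped by class. COL7A1 lies farthest to the right at 1.37 and COL12A1 farthest to the left at -1.07, and the intervals of COL1A1, COL4A1, COL4A2, COL6A3 and LAMC1 include 0.

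These calls rest on variance shared between genes. With each gene's own variance, limma called 0 of the 24 after adjustment, and 18 of them (15 higher, 3 lower) had a raw, unadjusted p below 0.05, beside 41% of all genes tested (21.4% higher, 19.6% lower). The smallest adjusted p was then 0.0549, and 13 of all genes tested (0.108%) passed. An exact permutation test of 2 libraries against 2 cannot give a two-sided p below 0.333.

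The largest share of the signal came from few genes. LAMB3, LAMB2, COL6A1, COL13A1 and COL5A1 held 55.3% of the summed FPKM of all 55 members over the 4 libraries. LAMB3, a beta chain of epithelial basement membranes, stood alone at the top with a mean of 170 FPKM in the vehicle control, followed by LAMB2 at 62.9 FPKM. COL5A1, LAMC1 and COL13A1 came next at 54.5 to 55.8 FPKM and their libraries overlapped, so that their order is not resolved. COL18A1, LAMA5 and COL4A2 overlapped in the same way, as did LAMB1, COL6A2 and COL8A1. The fibril-forming type I chains COL1A1 and COL1A2, the main collagen of connective tissue, stood near the bottom of the 24 tested at 1.35 and 3.23 FPKM. After MGH-CP1, COL6A1 moved from the sixth to the third place, LAMA5 from the eighth to the fifth and COL7A1 from rank 18 to rank 14. LAMC1 moved from the fourth to the eighth place and COL12A1 from rank 13 to rank 16. LAMC1 itself averaged 54.7 FPKM in the vehicle control and 54.9 FPKM after MGH-CP1. These places are by group mean. After MGH-CP1 the libraries of COL6A1 overlapped those of LAMB2, those of LAMA5 overlapped COL5A1 and those of COL12A1 overlapped COL4A1. In the vehicle control the libraries of COL7A1 overlapped those of COL6A3. These places are not resolved. The 55 members took 0.438% and 0.464% of all fragments in the vehicle control and 0.579% and 0.589% after MGH-CP1.

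**Figure D2:**
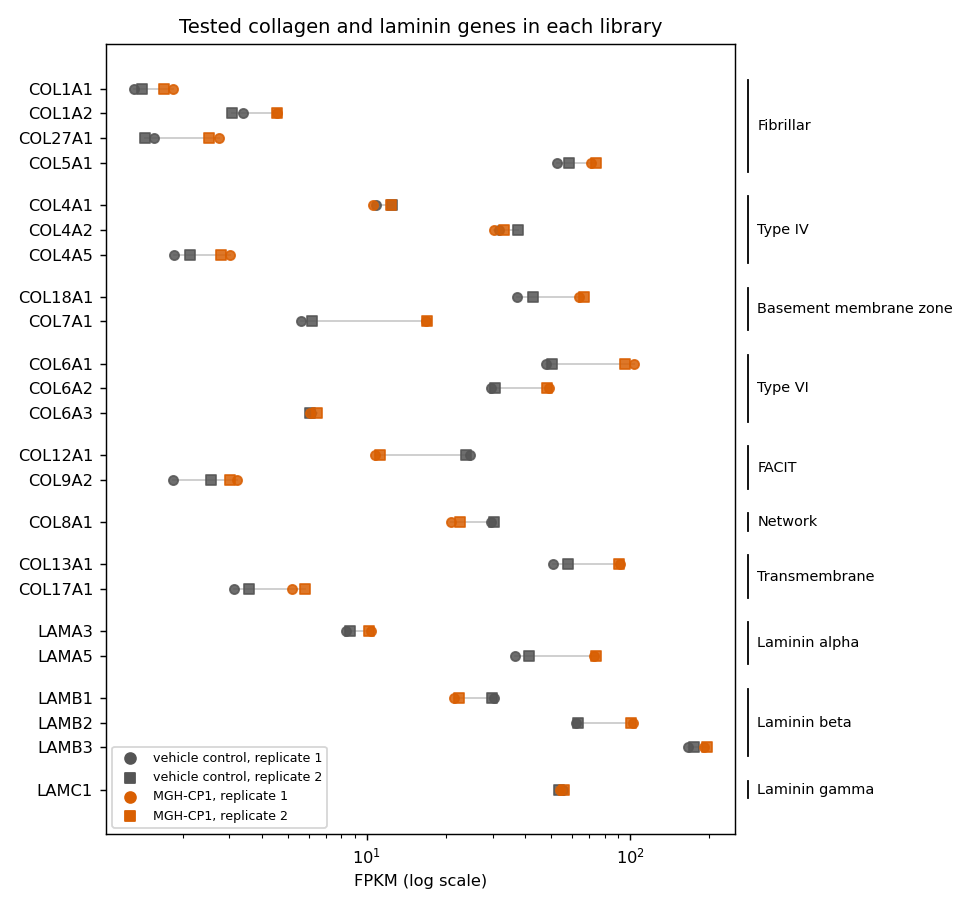
FPKM of 23 tested collagen and laminin genes in each of the 4 libraries on a log axis, with genes ordered within their class and vehicle control and MGH-CP1 libraries in different colours. The levels run from 1.31 FPKM for COL1A1 to 195 FPKM for LAMB3, and the 2 libraries of a group lie close together for most genes.

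COL7A1, which forms the anchoring fibrils that tie the epithelial basement membrane to the tissue below, rose most of the tested members. It was read at 5.63 and 6.17 FPKM in the vehicle control and at 16.7 and 16.9 FPKM after MGH-CP1. The groups stood far apart relative to the spread within each, and the log2 difference was 1.37 (SE 0.07, limma adjusted p = 1.50e-05). By size of rise it ranked 60 among the 12080 genes tested. The gene lies on chromosome 3 from 48601506 to 48632700 on the minus strand of hg19, and its values rested on 1330 and 1460 fragments in the vehicle control and 2792 and 2751 after MGH-CP1. COL18A1, whose C-terminal fragment is endostatin, was read at 37.3 and 42.9 FPKM and at 64.1 and 66.5 FPKM, with no overlap (log2 difference 0.69, SE 0.07, limma adjusted p = 1.41e-04). COL15A1, the close relative of COL18A1, was below the filter with 63, 73, 109 and 70 fragments. The 250 bases before the COL7A1 start are shown because it rose most of the tested members. They are given 5′ to 3′ on the coding strand, from chr3:48595330-48595579 of GRCh38.p14 in RefSeq, minus strand.
COL7A1: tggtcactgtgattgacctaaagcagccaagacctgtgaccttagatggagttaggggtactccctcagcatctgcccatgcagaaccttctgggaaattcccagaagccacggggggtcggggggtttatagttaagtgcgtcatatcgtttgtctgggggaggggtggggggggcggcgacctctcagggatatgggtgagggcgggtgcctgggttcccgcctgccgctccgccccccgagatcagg

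COL12A1, a fibril-associated collagen that links fibrils to the matrix around them, moved the other way. Its values were 24.7 and 23.8 FPKM in the vehicle control and 10.7 and 11.2 FPKM after MGH-CP1. Both MGH-CP1 libraries lay at under 0.5 times the lower vehicle library, with a log2 difference of -1.07 (SE 0.06, limma adjusted p = 1.91e-05), and the gene ranked 19 by size of fall among all genes tested. It lies on chromosome 6 from 75794042 to 75915767 on the minus strand of hg19. The 250 bases before its start are shown because it was the only tested member with a promoter window that held GGAATG, the motif bound by TEAD factors. They are given from chr6:75206054-75206303 of GRCh38.p14 in RefSeq, minus strand, with the motif in capitals.
COL12A1: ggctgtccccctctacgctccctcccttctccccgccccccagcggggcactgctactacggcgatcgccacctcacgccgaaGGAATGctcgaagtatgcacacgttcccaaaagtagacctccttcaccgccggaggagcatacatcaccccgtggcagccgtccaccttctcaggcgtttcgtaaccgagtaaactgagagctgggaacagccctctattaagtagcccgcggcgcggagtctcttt

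The first base of the motif in COL12A1 lay 167 bases before the start. GGAATG was searched on both strands in RefSeq windows of 300 bases, from 250 before to 50 after each start. It was in 4 of 54 windows of the 40 members that had one (7.41%), namely in COL10A1, COL11A2, COL12A1 and LAMA2, beside 14.0% of all 35116 windows. A match is only a run of letters in this window, and windows were matched for 19 of the 24 tested members.

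COL9A2, another fibril-associated collagen and best known from cartilage, was read at 1.84 and 2.57 FPKM in the vehicle control and at 3.21 and 3.01 FPKM after MGH-CP1. Its groups did not overlap, but the gap between the groups was smaller than the distance between its vehicle libraries. It was called higher with a log2 difference of 0.37 (SE 0.13, limma adjusted p = 0.0395). With all 4 libraries it was not called with no filter (limma adjusted p = 0.194) or after quantile normalization. Nor was it called with a mean of at least 0.1 FPKM and a pseudocount of 0.1 (limma adjusted p = 0.0840). The adjusted p was 0.254 without the first vehicle library, 0.140 without the first MGH-CP1 library and 0.0807 without the second.

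COL8A1, a short-chain collagen that forms hexagonal lattices under endothelium and in vessel walls, was the other collagen that fell. It was read at 29.6 and 30.4 FPKM in the vehicle control and at 20.8 and 22.5 FPKM after MGH-CP1, with a log2 difference of -0.45 (SE 0.06, limma adjusted p = 5.07e-04). Its partner COL8A2 was below the filter, with 19 and 21 fragments in the vehicle libraries and 40 and 39 in the smaller MGH-CP1 libraries. COL8A1 therefore stood at 185 and 172 times COL8A2 in FPKM in the vehicle control and at 43.7 and 47.4 times after MGH-CP1.

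The type VI chains, which build the beaded microfibrils around cells, did not move as one. COL6A1 was read at 47.8 and 50.5 FPKM in the vehicle control and at 103 and 95.4 FPKM after MGH-CP1, a log2 difference of 1.00 (SE 0.06, limma adjusted p = 2.04e-05). COL6A1 is among the genes the study selected as raised in common by MGH-CP1 and YAP/TAZ knockdown, partly from these libraries, so its direction is not independent evidence. COL6A2, 93046 bases beyond COL6A1 on the same strand of chromosome 21 in hg19, rose from 29.6 and 30.6 FPKM to 49.4 and 48.4 FPKM (log2 difference 0.68, SE 0.05, limma adjusted p = 4.18e-05). COL6A3, the long chain that completes the trimer and lies on chromosome 2, stood at 6.15 and 6.06 FPKM and then at 6.08 and 6.44 FPKM. Its groups overlapped and its log2 difference was 0.03, with a 95% confidence interval from -0.14 to 0.20 (limma adjusted p = 0.749). The ratio of COL6A1 to COL6A3 was 7.78 and 8.33 in the vehicle control and 17.0 and 14.8 after MGH-CP1, and that of COL6A1 to COL6A2 went from 1.61 and 1.65 to 2.10 and 1.97. The groups did not overlap in either ratio (two-sided exact permutation p = 0.333, the lowest this design allows).

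The type IV chains form the sheet-like network that all basement membranes share. COL4A1, read at 10.8, 12.4, 10.6 and 12.4 FPKM in the 2 vehicle and the 2 MGH-CP1 libraries, overlapped between the groups, with a log2 difference of -0.02 and a 95% confidence interval from -0.23 to 0.19 (limma adjusted p = 0.882). COL4A2, its partner in the most common trimer, was read at 31.8 and 37.5 FPKM and at 30.5 and 33.3 FPKM. Its log2 difference was -0.11, with an interval from -0.30 to 0.07 (limma adjusted p = 0.275), but without the first vehicle library it was called lower (log2 difference -0.23, limma adjusted p = 0.0269). The ratio of COL4A2 to COL4A1 was 2.94 and 3.02 in the vehicle control and 2.88 and 2.69 after MGH-CP1. COL4A5, a chain of the kidney and skin networks, rose from 1.85 and 2.12 FPKM to 3.01 and 2.80 FPKM (log2 difference 0.39, SE 0.10, limma adjusted p = 0.0152). The COL4A5 adjusted p was 0.0934 without the first vehicle library and 0.0696 without the first MGH-CP1 library.

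COL4A1 and COL4A2 start head to head on chromosome 13, and in the hg19 positions of the deposited table the 2 genes overlap by 1338 bases on opposite strands. Whether the counting used strand is not stated, so reads from that overlap could not be assigned with certainty. The 126 bases between the RefSeq starts of the pair are shown because both genes start from this stretch and neither passed the test. They are given from chr13:110307158-110307283 of GRCh38.p14, minus strand, and read from COL4A2 towards COL4A1, with 80.2% G or C and 20 CpG.
COL4A1: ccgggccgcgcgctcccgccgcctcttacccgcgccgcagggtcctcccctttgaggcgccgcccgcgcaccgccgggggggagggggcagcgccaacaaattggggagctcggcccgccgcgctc

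Of the fibrillar collagens, 4 of 11 were tested, 3 were called higher (beside 27.1% of all genes tested) and none lower, and in all 4 both MGH-CP1 libraries lay above both vehicle libraries (beside 39.8%). COL5A1, the chain that regulates fibril diameter, made up 89.2% of the summed FPKM of the class. It was read at 52.9 and 58.7 FPKM in the vehicle control and at 70.9 and 74.0 FPKM after MGH-CP1 (log2 difference 0.37, SE 0.06, limma adjusted p = 0.00144). COL5A2, with which it forms the usual type V trimer, was below the filter with 13 to 31 fragments in each library, so COL5A1 stood at 335 to 682 times COL5A2 in FPKM. COL27A1, a fibrillar collagen of cartilage, rose from 1.55 and 1.44 FPKM to 2.74 and 2.51 FPKM (log2 difference 0.54, SE 0.11, limma adjusted p = 0.00374).

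COL1A2 rose from 3.39 and 3.08 FPKM to 4.55 FPKM in both MGH-CP1 libraries (log2 difference 0.39, SE 0.09, limma adjusted p = 0.00680). COL1A1, at 1.31 and 1.39 FPKM and then 1.83 and 1.70 FPKM, did not pass the test, although its groups did not overlap (log2 difference 0.24, 95% confidence interval -0.02 to 0.49, limma adjusted p = 0.115). It was called with limma voom on fragments recovered from the FPKM (adjusted p = 0.0165) and with limma without a variance trend (adjusted p = 0.0282). It was not called with median-ratio scaling (limma adjusted p = 0.124) or with no filter (limma adjusted p = 0.197). The ratio of COL1A2 to COL1A1 overlapped between the groups. COL3A1, the collagen found with type I in stroma, was below the filter.

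Both tested transmembrane collagens rose. COL13A1, which sits at cell adhesions and at the neuromuscular junction, was read at 50.9 and 58.1 FPKM in the vehicle control and at 91.8 and 90.3 FPKM after MGH-CP1 (log2 difference 0.73, SE 0.07, limma adjusted p = 9.38e-05). COL17A1, a component of the hemidesmosomes that fasten epithelial cells to their basement membrane, was read at 3.12 and 3.56 FPKM and at 5.17 and 5.79 FPKM (log2 difference 0.58, SE 0.09, limma adjusted p = 0.00150). For each gene both MGH-CP1 libraries lay above both vehicle libraries, beside 39.8% of all genes tested. Of all genes tested 27.1% were called higher.

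Among the laminin alpha chains, LAMA5, the alpha chain of the most widespread adult trimers, was read at 36.7 and 41.3 FPKM in the vehicle control and at 72.6 and 73.9 FPKM after MGH-CP1. This was the largest rise of any tested laminin (log2 difference 0.90, SE 0.06, limma adjusted p = 3.67e-05), and the groups were clearly apart. LAMA3, an alpha chain of epithelial basement membranes, rose by much less, from 8.29 and 8.59 FPKM to 10.4 and 10.2 FPKM (log2 difference 0.26, SE 0.07, limma adjusted p = 0.0117). Its adjusted p was 0.0556 without the first vehicle library and 0.0611 without the first MGH-CP1 library. The ratio of LAMA5 to LAMA3 was 4.42 and 4.80 in the vehicle control and 6.98 and 7.25 after MGH-CP1. LAMA4, of vessels and muscle, was below the filter with 81 to 97 fragments.

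The beta chains moved in opposite directions. LAMB1, the beta chain of the early embryonic and widespread trimers, was read at 30.5 and 29.9 FPKM in the vehicle control and at 21.3 and 22.4 FPKM after MGH-CP1 (log2 difference -0.45, SE 0.05, limma adjusted p = 3.58e-04). LAMB2, which takes its place in the kidney filter and at the neuromuscular junction, was read at 62.3 and 63.6 FPKM and at 103 and 101 FPKM (log2 difference 0.69, SE 0.05, limma adjusted p = 3.10e-05). The ratio of LAMB2 to LAMB1 was 2.04 and 2.13 in the vehicle control and 4.81 and 4.51 after MGH-CP1 (two-sided exact permutation p = 0.333). Because LAMB2 was higher and LAMB1 lower in both MGH-CP1 libraries, this ratio could not overlap between the groups and adds no separate support. LAMB1 overlaps DLD on the opposite strand by 7932 bases in hg19. DLD had 2045 to 3859 fragments and a log2 difference of -0.25, and its part in the LAMB1 reading was not tested.

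LAMB3 was read at 166 and 174 FPKM and at 191 and 195 FPKM, a small rise that the libraries nevertheless separated (log2 difference 0.18, SE 0.05, limma adjusted p = 0.0136). Its adjusted p was 0.0538 without the first MGH-CP1 library and 0.0816 without the second. LAMC1, the gamma chain of most laminins, was read at 55.6 and 53.8 FPKM and at 54.0 and 55.8 FPKM, and its groups overlapped. Its log2 difference of 0.01 had a 95% confidence interval from -0.11 to 0.12 (limma adjusted p = 0.932).

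**Figure D3:**
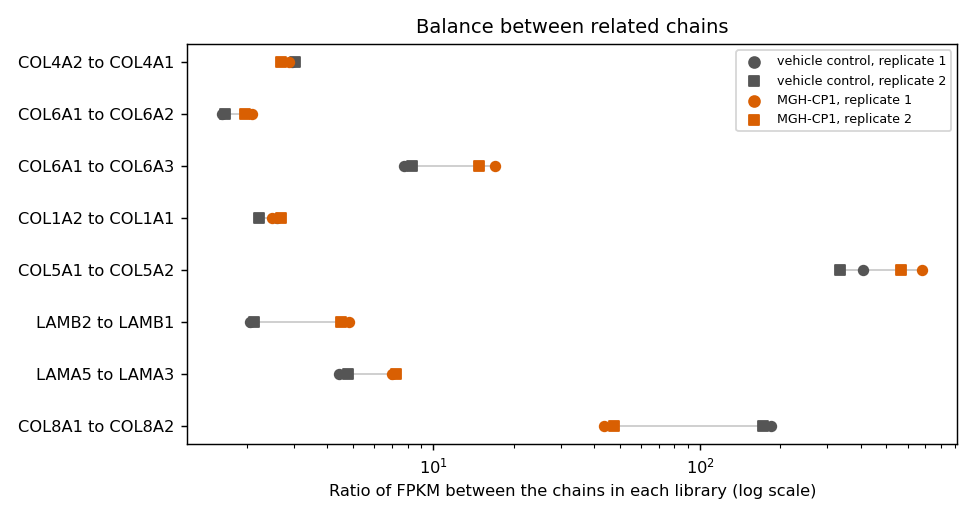
Ratio of the FPKM of paired chains in each of the 4 libraries, on a log axis, with vehicle control and MGH-CP1 libraries in different colours. The ratio of LAMB2 to LAMB1 rises from 2.04 and 2.13 to 4.81 and 4.51, and that of COL6A1 to COL6A3 from 7.78 and 8.33 to 17.0 and 14.8. The pairs were chosen with their values known.

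Summed by class, type VI FPKM was 83.6 and 87.1 in the vehicle control and 159 and 150 after MGH-CP1, 1.81 times as high. The fibrillar sum was 59.4 and 64.9 FPKM and then 80.3 and 82.9 FPKM, 1.31 times as high, and the laminin sum was 379 and 391 FPKM and then 474 and 482 FPKM, 1.24 times as high. In these 3 sums the groups did not overlap (two-sided exact permutation p = 0.333, the smallest that 2 against 2 can give). The type IV sum overlapped, at 44.7 and 52.3 FPKM against 44.6 and 48.7 FPKM (two-sided exact permutation p = 0.667). A sum follows its largest member, and COL4A2 held 69.9% of the type IV sum, COL6A1 61.9% of the type VI sum and LAMB3 42.2% of the laminin sum.

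**Figure D4:**
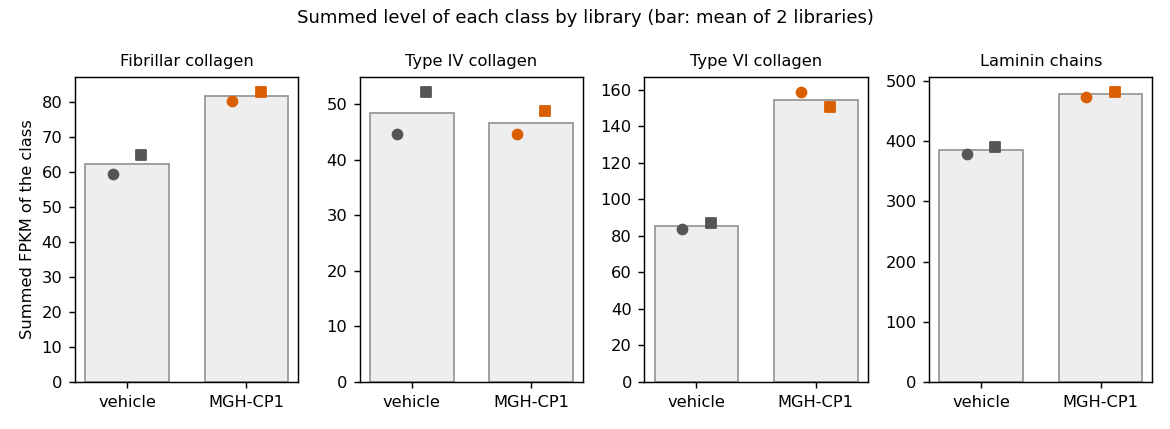
Summed FPKM of the fibrillar, type IV, type VI and laminin genes in each of the 4 libraries (points), with the group means as bars from 0. Type VI goes from 83.6 and 87.1 FPKM to 159 and 150 FPKM, and the type IV points of the 2 groups overlap.

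The other 31 members had a mean under 1 FPKM. Of these, 5 were at 0 in every library, namely COL5A3, COL6A5, COL9A1, COL22A1 and COL23A1, and 18 with a mean under 0.1 FPKM were detected with at most 27 fragments in any library. The remaining 8 had a mean of 0.1 FPKM or more. They were COL4A4, COL4A6, COL5A2, COL8A2, COL9A3, COL15A1, COL16A1 and LAMA4. With the filter at a mean of 0.1 FPKM and a pseudocount of 0.1, limma called 0 of the 8, beside 18.3% of all 17640 genes then tested called higher. Before adjustment 4 of the 8 had a p below 0.05, beside 43.7% of all genes at that filter, and the lowest adjusted p was 0.0510 for COL8A2. Both MGH-CP1 libraries lay above both vehicle libraries in 6 of the 8, beside 37.9%. With limma voom on recovered fragments at the same filter, an alternative chosen after the data were seen, COL8A2 (adjusted p = 0.00343), COL16A1 (adjusted p = 0.00972), COL15A1 (adjusted p = 0.0101), COL4A6 (adjusted p = 0.0257) and COL9A3 (adjusted p = 0.0294) were called higher, beside 21.1% of all genes in that setting. COL9A3 had 9 and 8 fragments in the vehicle libraries and 31 and 13 after MGH-CP1, and COL4A6 had 5 and 13 and then 27 and 15. COL4A6 overlaps ATG4A, with 220 to 356 fragments, by 11122 bases on the opposite strand, and COL9A3 overlaps TCFL5, with 935 to 1537 fragments, by 45 bases.

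The machinery that makes and trims collagen moved in part. Of 34 listed genes of collagen synthesis, 24 were tested, of which 12 were higher (50%) and 4 lower (16.7%), beside 27.1% and 23.8% of all genes tested, with a median log2 difference of 0.12. ADAMTS14, which cuts the N-terminal propeptide from fibrillar procollagen, rose from 1.70 and 1.63 FPKM to 7.08 FPKM in both MGH-CP1 libraries (log2 difference 1.60, SE 0.09, limma adjusted p = 1.77e-05). BMP1, which cuts the C-terminal propeptide, rose from 18.9 and 20.5 FPKM to 30.3 and 30.2 FPKM (log2 difference 0.59, limma adjusted p = 1.35e-04), and PCOLCE, its enhancer, by 0.50 on the log2 scale. BMP1 is also among the genes the study selected partly from these libraries, so its direction is not independent evidence. The proline hydroxylase subunits P4HA1 (log2 difference 0.38) and P4HA2 (0.50), the lysine hydroxylase PLOD1 (0.38) and the cross-linking oxidase LOX (0.34) were higher. The hydroxylases PLOD2 (log2 difference 0.01), PLOD3 (0.03), LEPRE1 (0.08) and LEPREL1 (-0.14) did not pass the test. COLGALT2, one of the galactosyltransferases that modify hydroxylysine, was higher (log2 difference 0.62, limma adjusted p = 5.04e-04), and its paralog COLGALT1 was lower, from 102 and 106 FPKM to 78.8 and 90.6 FPKM (log2 difference -0.30, limma adjusted p = 0.00764).

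TMEM38B, an endoplasmic reticulum cation channel, fell from 7.37 and 7.11 FPKM to 4.86 and 4.85 FPKM (log2 difference -0.49, limma adjusted p = 9.75e-04). CRTAP, of the prolyl 3-hydroxylation complex, had a log2 difference of -0.17 (limma adjusted p = 0.0254), and its adjusted p was 0.0678 without the first MGH-CP1 library, 0.129 without the second and 0.111 without the first vehicle library. PCOLCE2 was at the threshold (log2 difference -0.33, limma adjusted p = 0.0499), and leaving out any 1 library gave an adjusted p from 0.0708 to 0.239. It passed the filter only through the vehicle group, since it averaged 0.988 FPKM after MGH-CP1. SERPINH1, the collagen chaperone, was read at 80.6 and 82.0 FPKM and at 85.3 and 85.1 FPKM and did not pass the test (log2 difference 0.07, limma adjusted p = 0.250).

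Of 12 basement membrane partners 6 were tested, of which 5 were higher (beside 27.1% of all genes tested) and 0 lower (beside 23.8%), with a median log2 difference of 0.22. AGRN, the heparan sulfate proteoglycan agrin that binds laminin, rose from 95.8 and 103 FPKM to 142 and 147 FPKM (log2 difference 0.54, limma adjusted p = 1.32e-04). DAG1, which encodes the laminin receptor dystroglycan, rose from 99.3 and 98.1 FPKM to 132 and 125 FPKM (log2 difference 0.38, limma adjusted p = 4.54e-04). NTN4, a laminin-related netrin, was called at 0.26 on the log2 scale (limma adjusted p = 0.0376), but not without either MGH-CP1 library or the second vehicle library, where the adjusted p was 0.0695, 0.158 and 0.206. PXDN (log2 difference 0.17, limma adjusted p = 0.0227) and TINAGL1 (log2 difference 0.14, limma adjusted p = 0.0423) were also called higher. Neither was called in limma without a variance trend (adjusted p = 0.0687 and 0.104) or in limma with no filter (adjusted p = 0.0595 and 0.0787). HSPG2, or perlecan, overlapped between the groups (log2 difference 0.10, limma adjusted p = 0.302). NID1, which links laminin to type IV collagen, was at 0 in both vehicle libraries and at most 0.0291 FPKM after MGH-CP1.

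Of 13 receptors for collagen and laminin 10 were tested, of which 9 were higher (beside 27.1% of all genes tested) and 0 lower (beside 23.8%), with a median log2 difference of 0.56. ITGA10, a collagen-binding integrin alpha chain, rose from 0.559 and 0.796 FPKM to 4.84 and 4.33 FPKM (log2 difference 1.74, SE 0.12, limma adjusted p = 3.31e-05). It averaged 0.678 FPKM in the vehicle control and passed the filter only through the MGH-CP1 group, so its place in the count follows in part from the filter. DDR1, a receptor tyrosine kinase that binds collagen, rose from 25.8 and 28.3 FPKM to 48.5 and 47.9 FPKM (log2 difference 0.81, limma adjusted p = 3.98e-05), and it too belongs to the genes selected partly on these libraries, so its direction is not independent evidence. ITGB4, the hemidesmosomal integrin chain that binds laminin, rose from 61.5 and 64.0 FPKM to 109 and 107 FPKM (log2 difference 0.77, limma adjusted p = 2.58e-05). The laminin-binding ITGA3 was higher by 0.22 on the log2 scale, and by 0.19 without the second MGH-CP1 library. It was not called after quantile normalization (log2 difference 0.08, limma adjusted p = 0.169) or with no filter (limma adjusted p = 0.0807). ITGA6, also laminin-binding, was higher by 0.21, and the collagen-binding ITGA1 and ITGA2 by 0.68 and 0.59. ITGB1, the beta chain that most of these share and the most abundant gene of the list, was read at 506 and 470 FPKM and at 460 and 437 FPKM and did not pass the test (log2 difference -0.12, limma adjusted p = 0.104), but it was called lower without the second vehicle library (limma adjusted p = 0.0240), with the replicate block (0.0498) and with limma voom on recovered fragments at either filter (0.0202 and 0.0316).

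**Figure D5:**
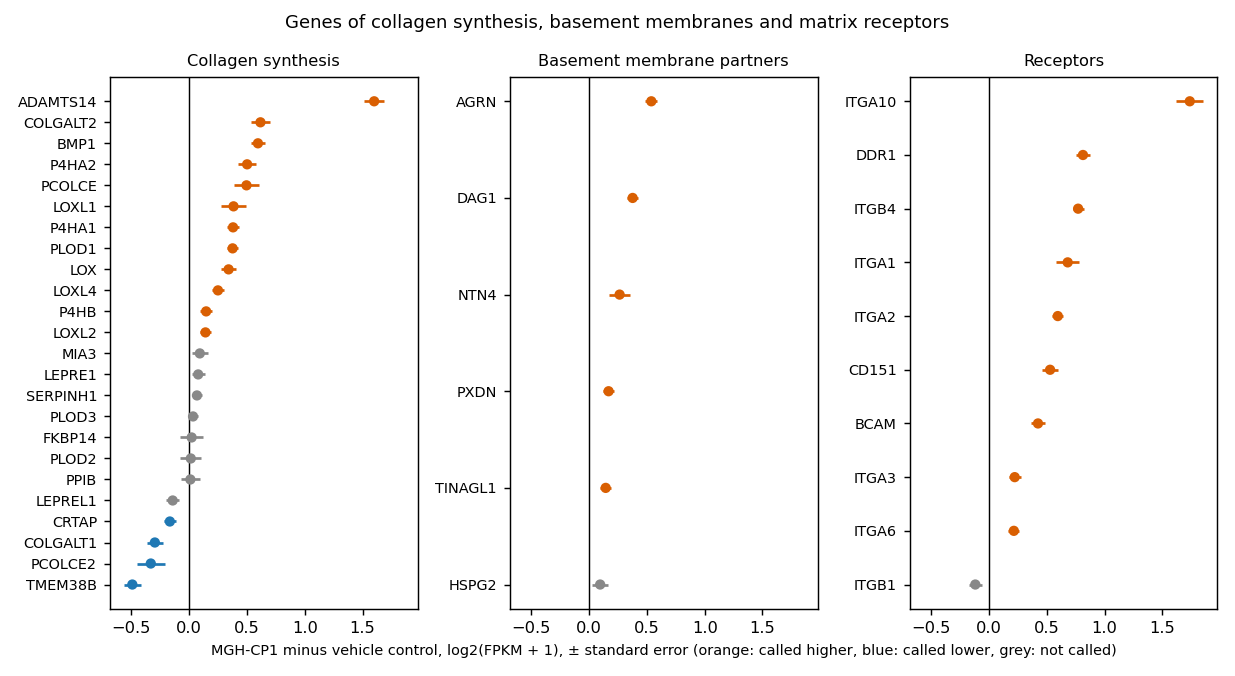
Log2 difference (MGH-CP1 minus vehicle control, on log2(FPKM + 1), n = 2 libraries a group) of each tested gene of the collagen synthesis, basement membrane partner and receptor lists, with its standard error as a bar and in colour where the adjusted p was under 0.05. ITGA10 at 1.74 and ADAMTS14 at 1.60 lie farthest to the right and TMEM38B at -0.49 farthest to the left.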

How the data were processed

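RNA-seq was analysed from 2 vehicle control and 2 MGH-CP1 libraries of MDA-MB-231 cells. The deposited table gives FPKM for each gene and library, made by the authors, with a deposited gene length in bases. The submitters' processing notes name CASAVA 1.8, STAR and the build hg19, and the counting tool and its use of strand are not given in the sources used here. FPKM times gene length gave whole fragments for 100% of values (within 0.01), which set the depth of each library (25455533, 25508824, 17997221 and 17577930 fragments). The study named a per-gene test of the groups, and here limma 3.58.1 in R 4.3.3 (lmFit, eBayes with a trend, two-sided) was fitted to log2(FPKM + 1) for genes averaging at least 1 FPKM over the 4 libraries, with Benjamini-Hochberg adjustment over all 12080 and a threshold of 0.05. The script was tested on simulated data. Summed FPKM and ratios were compared by an exact permutation test over libraries in Python 3.11.15 (scipy 1.17.1). Every member with a mean of at least 1 FPKM was named except 1 that is not reported here but stays in the counts and sums, and the 3 largest changes in each direction among the called genes of each supporting list, with others named after their values were seen. The members, lists and chain pairs were chosen with earlier results of these data known. Promoter sequences were from RefSeq (GRCh38.p14). Alternatives covered pseudocount, filter, scaling, variance model, recovered fragments, the replicate block and each library left out.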

Additional observations from a re-analysis of the deposited data

How the results depend on the processing

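All 24 tested members kept their direction wherever they were called, and under settings that share variance between genes 11 to 17 were called higher, beside 22 with limma voom at a mean of at least 0.1 FPKM, and 3 or 4 lower. The median log2 difference of the members tested was 0.44 with limma voom on recovered fragments, 0.29 after quantile normalization, 0.24 with a mean of at least 5 FPKM, 0.49 with a mean of at least 0.1 FPKM and a pseudocount of 0.1, 0.052 with no filter and 0.54 with limma voom at a mean of at least 0.1 FPKM, which was chosen after seeing the data. In these settings the set of members tested or the scale also changed. In this section, a count of members or supporting genes without the share of all genes does not set them apart from other genes. Leaving out each library in turn gave a median from 0.27 to 0.39. The lone library was then assumed to vary like the other group. In limma without shared variance 0 members were higher, 0 were lower and 0 supporting genes were called, against 16, 3 and 30. At an unadjusted p below 0.05 the counts were 15, 3 and 24, the last of 40 supporting genes tested. Of all genes tested, 21.4% were then higher, 19.6% lower and 41% in either direction. With no filter 19 supporting genes were called. With the replicate number as a replicate block, 16 were higher and 3 lower, with 31 supporting genes called. Same-numbered libraries shared only a number (correlation of their deviations 0.0777), and no block was used. Depth limits the members below the filter, where the 18 detected with a mean under 0.1 FPKM had at most 27 fragments, and 2 libraries a group limit every p.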
